A study of Mus musculus with 2 samples.

Results

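The distal ends of the mouse autosomes were described here, the stretches that lie farthest from the centromere. Array probes separated by gaps of at most 500 bp were joined into runs of 2 or more probes. A run was taken as distal when its start lay within 4 Mb of the last probe end of its chromosome on the array. The choice used position alone and no measured value. It gave 990 distal runs of 18831 runs in all, against 17445 remaining autosomal runs, and every one of the 19 autosomes contributed. After spots with an outlier flag were left out, 984 distal runs with 4592 probes kept at least 2 probes and were tested, together with 17383 remaining autosomal runs. All coordinates are on genome build mm8, as the scanner files give them, and the files pair no probe with a gene. A reference of that build was not used here, so runs are named by position, and neither genes nor base sequences are given.

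The study followed DNA methylation of the hypothalamus across the suckling period in mice, from birth (P0, day 0) to weaning age (P21, day 21). DNA came from females of a C57BL/6J and C3H/HeJ mixture with the non-agouti genotype at both ages, so the groups differed in age and shared sex, strain background and genotype. P21 and P0 DNA were hybridised together on 2 two-colour Agilent tiling arrays, called A and B here. Array A carried P0 in red (Cy5) and P21 in green (Cy3), and array B carried the dyes the other way round. The design text speaks of biological replicates, and the number of animals behind each and any pooling are not given, so that limma p-values cover only the spread of 2 arrays, which may be technical. Whole hypothalamus holds neurons and glia, and a change within a cell type and a change in the mix of cell types cannot be told apart in such DNA.

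Mouse autosomes are telocentric, with the centromere close to the start of the numbering, so the distal end is the tip of the long arm. Subtelomeric DNA is commonly rich in genes, CpG islands and repeats, and DNA methylation near telomeres takes part in keeping that chromatin compact. The assay, a methylation-specific amplification microarray, reads CCCGGG sites. SmaI cuts the unmethylated site to blunt ends, XmaI then cuts the remaining methylated copies to sticky ends, and adaptors ligated to those ends allow the fragment to be amplified. A positive log2 ratio of P21 over P0 therefore means more signal at P21 from fragments with methylated ends. It is a relative signal and not a percentage of methylated molecules.

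Both signs of change were found at the distal ends, and gains of signal outnumbered losses. With limma and Benjamini-Hochberg adjustment over all 18761 runs tested, 79 distal runs (8.03%) rose from P0 to P21, where 7.65% of all runs tested did. The same fit called 38 distal runs (3.86%) lower at P21, where 3.99% of all runs tested were. In the remaining autosomal runs the shares were 7.77% higher and 4.03% lower, so both distal shares lay close to the background. The first 4 Mb of the probed autosomes, the side of the centromere, held 31 of 505 runs called higher (6.14%) and 21 called lower (4.16%).

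The size of the changes was also described without a p-value. A rule of size asked for a mean log2 ratio of at least 1, a 2-fold change, and at least a 1.5-fold change in the same direction on each array. It took in 44 distal runs in the higher direction (4.47%), where the background over all runs was 3.71%, and 3 in the lower direction (0.305%), where it was 0.501%. On array A alone 5 distal runs were at least 2-fold lower and on array B alone 16, so the count of strong losses rested on which arrays were used. Applied to red over green ratios whose sign was not turned, where a dye effect would add up, the same rule took in 0 distal runs. The median called gain was 1.13 in log2 at the distal ends and 0.98 elsewhere on the autosomes. The median called loss was -0.71 at the distal ends and -0.70 elsewhere.

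Over all runs, the distal ends stood slightly above the rest on both arrays. The mean log2 ratio of distal runs was 0.052 on A and 0.021 on B, and that of the remaining autosomal runs was 0.040 and 0.0069. The difference was 0.012 on A and 0.014 on B (mean 0.013 ± 0.0015 SD, n = 2 arrays). That SD covers only the gap between 2 arrays that read the same runs, and not the spread over runs. Across runs the mean log2 ratio had an SD of 0.477 at the distal ends and 0.445 in the rest, far wider than the difference. With 2 arrays, an exact two-sided test that flips signs cannot give a p below 0.5. Medians lay below 0 in both sets, at -0.027 and -0.019 for distal runs on arrays A and B and at -0.015 and -0.031 for the rest. The sign of the median difference was thus opposite on the 2 arrays. With normexp and loess the difference was 0.0095 on A and -0.0016 on B, and it lay above 0 on both arrays in 17 of 20 settings. Those settings include other centring and another limma prior, which cannot change a difference of means. The count thus overstates how far the difference was tried. The difference of means turned to -0.0062 when the window was widened to 8 Mb, and it was 0.029 in a window of 2 Mb.

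Values of the 2 arrays followed each other across distal runs with a Pearson correlation of 0.742 (Spearman 0.486, n = 984 runs), where the remaining autosomal runs gave 0.728. These runs share the same arrays and labelling, and neighbouring runs are not independent. The 2 arrays gave the same sign for 63.6% of distal runs, and the median gap between them was 0.214 in log2. Every called distal run lay on the same side of 0 on both arrays, and all probes pointed the called way on both arrays in 63 of 79 higher and 35 of 38 lower runs. A call from 2 arrays favours runs on which both agree, so these counts are not separate support. Of the probes in distal runs, 93.7% stood well above background at both ages on each array.

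**Figure D1:**
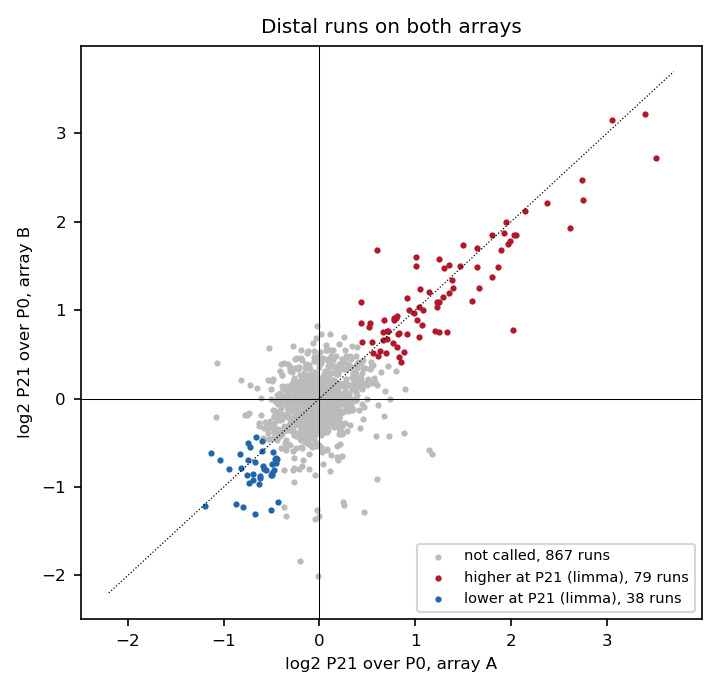
Each point is 1 of the 984 distal runs, with its mean log2 ratio of P21 over P0 on array A (x axis) and array B (y axis); red and blue mark the 79 higher and 38 lower limma calls and the dotted line equal values. The calls spread up to 3.31 on average in the higher direction and only to -1.21 in the lower one.

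The largest gain lay near the tip of chromosome 15, at chr15:102846563-102847189, 513664 bp from the last probe end. Its 4 probes had a geometric mean processed intensity of 323 at P0 and 3421 at P21 on array A, and of 302.5 at P0 and 2817 at P21 on array B. P21 was thus far above P0 on both arrays, with all 8 spots of each age well above background. The log2 ratio was 3.40 on A and 3.22 on B (mean 3.31 ± 0.13 SD, n = 2 arrays, limma adjusted p = 0.000201), a 9.93-fold rise. With normexp background correction and loess in place of the deposited processing, the mean log2 ratio was 2.32 and the call held (limma adjusted p = 0.013).

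Chromosome 15 held a further pair of strong gains. At chr15:101831248-101832523, 8 probes had a mean intensity of 717 at P0 and 5980.5 at P21 on array A, and of 593 and 5287 on array B. The rise was close to equal on both arrays, 3.06 and 3.16 in log2 (mean 3.11 ± 0.069 SD, limma adjusted p = 0.000201), or 8.63-fold. At chr15:99429258-99429967 both ages were bright, with 6653 at P0 and 25705 at P21 on A and 5071 and 20192 on B. That run rose 3.92-fold (log2 ratio 1.95 on A and 1.99 on B, limma adjusted p = 0.000437). Distal chromosome 15 carries the Hoxc cluster and keratin genes in the mouse, which is background only, since no run was placed in a gene.

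Chromosome 10 carried both a short and a long run among the strongest gains. The 4 probes at chr10:127123975-127124599 went from 725 to 8310 on array A and from 873 to 5778 on array B. P21 was above P0 on both arrays, though by more on array A, with log2 ratios of 3.52 and 2.73 (mean 3.12 ± 0.56 SD, limma adjusted p = 0.000412). This was the widest spread between arrays among the 12 strongest gains. The 16 probes at chr10:126927951-126931872 went from 587 to 2429.6 on array A and from 561 to 2020.5 on array B. Their rise was 3.86-fold, with log2 ratios of 2.05 and 1.85 (limma adjusted p = 0.000492), across a span of 3922 bp that may join several restriction fragments.

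On chromosome 11, gains were found at 3 positions among the strongest 12. At chr11:118425467-118425858 the mean intensity went from 727 to 4843 on array A and from 699 to 3879 on array B. The log2 ratio was 2.74 on A and 2.47 on B (mean 2.60 ± 0.19 SD, limma adjusted p = 0.000254), a 6.08-fold rise. The run at chr11:120056111-120056448 was dimmer, going from 224 to 1370 on array A and from 249 to 952 on array B, and rose 4.84-fold (limma adjusted p = 0.000697). The 9 probes at chr11:120002215-120004128 went from 137 to 520 on array A and from 150 to 548 on array B, a 3.74-fold rise (limma adjusted p = 0.000492). Both dimmer runs missed the threshold with normexp and loess, at log2 ratios of 1.37 (limma adjusted p = 0.080) and 0.94 (limma adjusted p = 0.073).

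The other strong gains lay on chromosomes 5, 2, 16 and 4. The run at chr5:149141722-149142295 had log2 ratios of 2.75 on A and 2.24 on B, a 5.65-fold rise (limma adjusted p = 0.000430). At chr2:181141688-181142205 the ratios were 2.38 and 2.21, a 4.91-fold rise to a bright level of 25169.7 on A and 18903 on B (limma adjusted p = 0.000326). At chr16:94288483-94289853 the arrays differed least among the 12 gains, with ratios of 2.15 and 2.13 (mean 2.14 ± 0.017 SD, limma adjusted p = 0.000378). In these 3 runs P21 exceeded P0 on both arrays at every spot, and none lost its call under an alternative with both arrays in which limma tested it. The run at chr4:153754898-153755464 had only 3 probes and a dim P0 level of 37.8 on A and 46.7 on B, with 5 of 6 P0 spots well above background. Its 3.83-fold rise (limma adjusted p = 0.000492) shrank to a log2 ratio of 0.59 with normexp and loess and was no longer called (limma adjusted p = 0.193). With normexp alone its mean log2 ratio was 0.27, and the arrays had opposite signs (1.28 on A and -0.75 on B).

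Across these 12 strongest gains, which lay on 7 chromosomes, all 72 probes were higher at P21 on both arrays. The runs were picked by the mean of these same probes, so that count is description only. The limma adjusted p ranged from 0.000201 to 0.000697 and the rise from 3.74-fold to 9.93-fold. Of the 12, 5 had a fold change that moved by more than 1.5 times under some alternative, and 3 lost their call with normexp and loess, the dim runs already named on chromosomes 4 and 11.

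**Figure D2:**
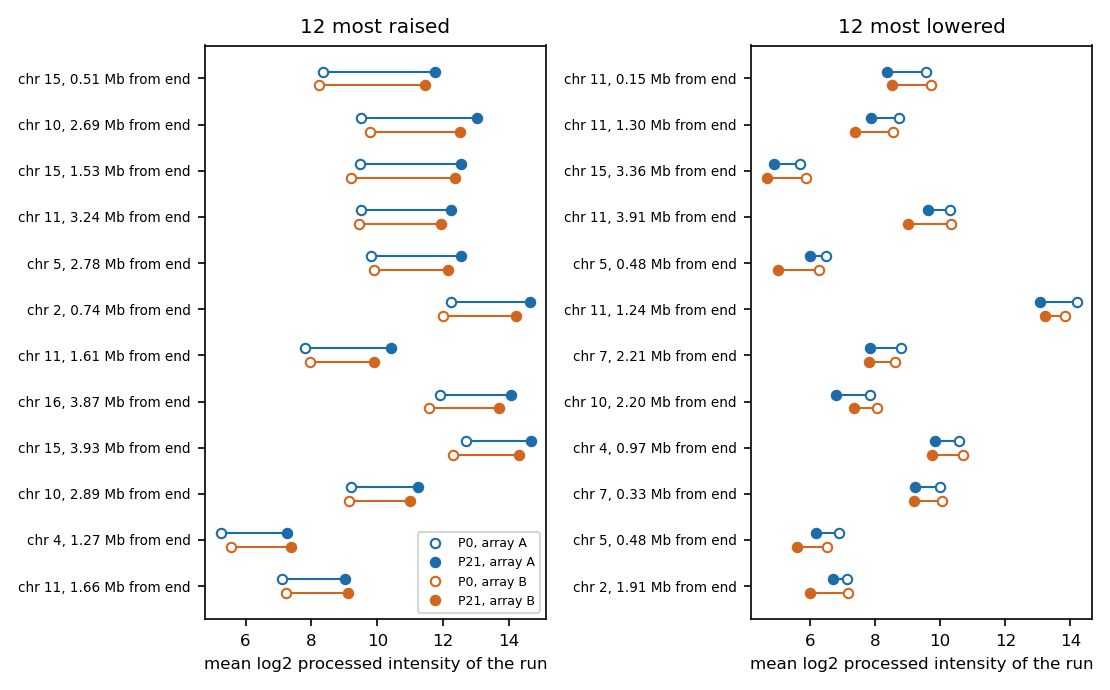
Mean log2 processed intensity at P0 (open) and P21 (filled) on arrays A (blue) and B (orange) for the 12 distal runs with the largest called gain (left) and loss (right), each labelled by its chromosome and distance from the last probe. Averaged over both arrays, the gains are 1.90 to 3.31 in log2, while the losses go no further than -1.21 and include several dim runs.

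Within longer runs the rise was not even from probe to probe. At chr15:101831248-101832523 the first 3 probes had log2 ratios of 4.18 to 4.40 on array A and 4.36 to 4.45 on array B. The other 5 probes, from position 101832016 on, had ratios of 2.07 to 2.65 on array A and 1.83 to 2.92 on array B. The values of both stretches did not overlap on either array. With runs joined at gaps of at most 250 bp instead of 500 bp this run split, and its reported mean log2 ratio became 2.37.

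A similar step was present at chr16:94288483-94289853, in the opposite order. The first 5 probes had log2 ratios of 1.60 to 1.84 on array A and 1.58 to 1.97 on array B. From position 94289191 on, 3 probes had ratios of 2.52 to 2.91 on array A and 2.38 to 2.96 on array B. In the long chromosome 10 run from 126927951, the fifth probe was low on both arrays, at 0.63 and 0.57, and the sixth was at 1.55 on A and 0.57 on B. The 4 probes from 126930634 were the highest, at 2.77 to 3.14 on array A and 2.60 to 2.98 on array B. These profiles were picked out after their values were seen. Whether the steps fall at CCCGGG sites was not tested.

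The losses were smaller than the gains and rested on fewer probes. The strongest lay 146319 bp from the last probe end of chromosome 11, at chr11:121519409-121520333. Its 3 probes had a mean intensity of 758 at P0 and 330.5 at P21 on array A, and of 848 at P0 and 366 at P21 on array B. P21 was below P0 on both arrays by nearly the same amount, with log2 ratios of -1.20 and -1.21 (limma adjusted p = 0.00198), a 2.31-fold fall. Of its 6 P21 spots, 4 were well above background, and its first probe was not at P21 on either array. With only probes well above background its mean log2 ratio was -1.05, and that of chr11:120365082-120365396 was then -1.07. With runs joined at gaps of at most 1000 bp it was -0.38 and no longer called (limma adjusted p = 0.105).

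Further losses on chromosome 11 lay at chr11:120365082-120365396, chr11:117753710-117753970 and chr11:120426191-120426469. The first had log2 ratios of -0.87 on A and -1.19 on B, a 2.04-fold fall (limma adjusted p = 0.00578). The second had ratios of -0.68 and -1.30, and the fall was larger on array B (limma adjusted p = 0.0155). The third was the brightest of the 12 strongest losses, going from 18686 to 8499 on array A and from 14567 to 9488 on array B. All 8 of its spots were well above background at both ages, and its fall was 1.84-fold (log2 ratio -1.14 on A and -0.62 on B, limma adjusted p = 0.0179).

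On chromosome 7, losses were called at chr7:142862405-142863843 and chr7:144746287-144746696. The first, with 6 probes, had log2 ratios of -0.95 on A and -0.79 on B (mean -0.87 ± 0.11 SD, limma adjusted p = 0.00801). The second had ratios of -0.76 and -0.86, and its neighbour at chr7:144745489-144745779, 508 bp away, was called lower too (-0.50 and -0.86, limma adjusted p = 0.0305). Distal chromosome 7 of the mouse is known for an imprinted cluster that includes H19 and Igf2, as background, and these runs were not placed against it.

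The remaining strong losses lay on chromosomes 15, 5, 10, 4 and 2. At chr15:100004466-100005117 the ratios were -0.79 on A and -1.22 on B (limma adjusted p = 0.00813), but both ages were dim, with means of 51.9 and 29.9 on array A and 3 of 6 P21 spots well above background. On chromosome 5, chr5:151434469-151435280 (-0.70 and -0.92, limma adjusted p = 0.0121) and chr5:151436140-151436611 (-0.51 and -1.27, limma adjusted p = 0.0329) lay 860 bp apart and fell together. At chr10:127612978-127614019 the ratios were -1.04 and -0.69 (limma adjusted p = 0.0121), and at chr4:154055271-154055860 they were -0.74 and -0.95 (limma adjusted p = 0.00995). The last of the 12, chr2:179969872-179970111, had ratios of -0.43 and -1.17 (limma adjusted p = 0.0451) from 2 probes, 1 of which was lower on both arrays.

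In all, 39 of the 40 probes of the 12 strongest losses, picked by the mean of these same probes, were lower at P21 on both arrays. Only 5 of these runs had 4 or more probes, where 11 of the 12 strongest gains did. With normexp and loess 6 of the 12 losses lost their call, and with normexp alone all 12 did, the limma adjusted p then being 0.952 for each. The call was lost for 4 with the median of the probes per run, for 3 with gaps of at most 1000 bp and for 0 with a trended and robust prior. The fold change of 6 of the 12 moved by more than 1.5 times under some alternative. A further run called lower, chr11:121664479-121665728, was the last run of chromosome 11 (-0.45 on A and -0.73 on B, limma adjusted p = 0.0415). None of its 6 P21 spots was well above background, so no fold is given for it. Median log2 intensity of the called losses went from 7.91 at P0 to 7.20 at P21, where that of the called gains went from 9.74 to 11.1.

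The distal ends were unequally sampled across chromosomes. Chromosome 4 had 152 distal runs tested and chromosome 11 had 139, together 29.6% of the 984, while chromosome 17 had 3. The median chromosome had 47 distal runs, against 31.2 per 4 Mb in the rest of the same chromosomes, and the distal end was the denser on 13 of 19. Chromosome 4 had 4.13 times as many runs in its last 4 Mb as per 4 Mb elsewhere.

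Gains were called on 15 chromosomes and losses on 11. The highest share of gains was on chromosome 12, where 3 of 16 distal runs rose (18.8%), against 8.67% in the rest of that chromosome. Those 3 were chr12:118973671-118975883, with ratios of 1.99 on A and 1.78 on B, and chr12:117596684-117597968 (1.04 and 0.70) and chr12:117611971-117612554 (0.92 and 1.14). The distal mean of chromosome 12, over 16 runs only, was 0.31 on A, the highest of the 19, and 0.15 on B, where chromosome 16 stood higher at 0.16. The median of these 16 runs over both arrays was -0.013, so the mean does not describe a typical run.

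Chromosome 7 came next, with 10 of 74 distal runs called higher (13.5%) where 6.04% were in the rest of the chromosome, and 4 called lower. Its strongest gain was a run of 19 probes at chr7:141314979-141317244, with log2 ratios of 1.65 on A and 1.70 on B (limma adjusted p = 0.000587). Chromosome 6 had 4 gains among 35 distal runs (11.4%, against 6.16% in the rest of it). On chromosomes 19 and 8 the share was below that of the rest. Chromosome 19 had 4 gains among 49 runs (8.16% against 8.99%) and chromosome 8 had 3 among 47 (6.38% against 10.2%). Chromosomes 6, 19 and 8 had 0 losses, where 4.27%, 4.95% and 4.36% of their remaining runs fell. No gain was called on chromosomes 3, 13, 17 and 18, which had between 3 and 9 distal runs each.

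Chromosome 11 had the most losses, a count that was not tested. It held 12 of the 38 distal losses beside 11 gains, so that 8.63% of its 139 distal runs fell, where 3.96% did in the rest of the chromosome. Chromosome 13 had the highest share of losses, 12.5%, which was 1 of 8 runs. Those 8 runs were dim, with a mean log2 intensity of 6.59 against 9.52 in the rest of the chromosome. In the run that fell, 3 of 8 P0 spots and 2 of 8 P21 spots were well above background. Chromosomes 11 and 13 were also the 2 on which the distal mean lay below 0 on both arrays, at -0.027 and -0.013 on chromosome 11 and at -0.061 and -0.086 on chromosome 13. On 11 chromosomes the distal mean lay above 0 on both arrays.

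Compared with the rest of its own chromosome, the distal end had the higher mean on both arrays on 10 chromosomes and the lower mean on both arrays on 6. On 3 the arrays gave opposite signs. The share called higher exceeded that of the rest on 7 of 19 chromosomes. Chromosome 10 had a distal mean of 0.056 on A and 0.051 on B with 6 gains and 1 loss, where its remaining runs had 5.36% gains and 6.05% losses. Its distal median over both arrays was -0.045, below the -0.035 of its remaining runs, so the mean does not describe a typical run. On chromosome 5 the arrays disagreed, with a distal mean of 0.044 on A and -0.14 on B.

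**Figure D3:**
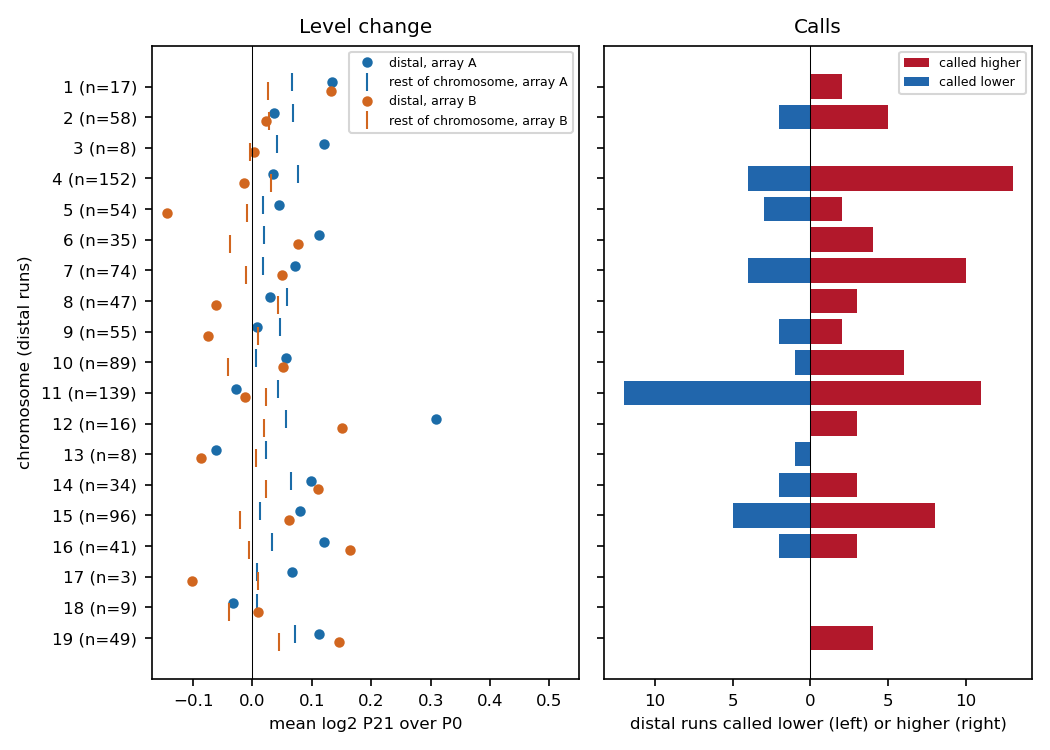
Left, mean log2 ratio of P21 over P0 of the distal runs (points) and of the rest of each autosome (ticks) on arrays A (blue) and B (orange), with the number of distal runs in brackets; right, distal runs called lower (left of 0) and higher (right of 0) by limma. Chromosome 12 has the highest distal mean on array A, 0.31, chromosome 16 on array B, 0.16, and chromosome 11 the most losses, 12.

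Mean values varied with position inside the last 4 Mb, a pattern that was noticed after the values were seen and was not tested. The 79 runs within 0.5 Mb of the last probe had a mean log2 ratio of -0.097 on A and -0.091 on B, with 2 called higher (2.53%) and 6 called lower (7.59%). The 61 runs between 0.5 and 1 Mb had means of 0.17 and 0.15, with 8 called higher (13.1%) and 1 lower. The class next to the tip was thus the lowest of the distal classes on both arrays, and the following class the highest. Between 1 and 2 Mb 10.7% of 281 runs were called higher, between 2 and 3 Mb 5.56% of 270, and between 3 and 4 Mb 8.19% of 293.

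With each chromosome left out in turn, the mean of the last 0.5 Mb stayed below 0 on both arrays. It then ranged from -0.13 to -0.069 on array A and from -0.12 to -0.062 on array B. The stretch was picked for its low mean in these same data, so this range cannot tell the pattern from chance. Among single chromosomes, 9 had a mean below 0 on both arrays in that stretch, 2 had a mean above 0 on both and 8 had opposite signs. Chromosomes 1, 10, 13, 14, 17 and 18 had only 1 run there. Of the 10 chromosomes with at least 4 runs, 5 lay below 0 on both arrays, 2 above 0 on both and 3 had opposite signs. Chromosome 9 stood highest, at 0.55 and 0.47 over 4 runs, with chr9:123064434-123064786 rising on both arrays (1.49 and 1.74, limma adjusted p = 0.000821). Chromosome 5 stood lowest on array B, at -0.38 on A and -0.52 on B over 5 runs.

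Runs of the last 0.5 Mb were also dimmer, but brightness did not follow the mean ratio across the other distal classes. The class between 0.5 and 1 Mb, with the highest mean ratio, had a mean log2 intensity of 9.88. Between 2 and 3 Mb it was 10.2. Mean log2 intensity was 9.07 in the last 0.5 Mb and 9.76 in the remaining autosomal runs. Of the 79 runs, 35.4% had 2 or 3 probes, where 29.0% of distal runs beyond 0.5 Mb did. The mean number of probes per run was 4.61, close to the 4.65 of the remaining autosomal runs. The 45 dimmer runs of the stretch had means of -0.12 on A and -0.16 on B, where dimmer remaining runs had -0.0062 and -0.094. Its 34 brighter runs had -0.067 and 0.0033, where brighter remaining runs had 0.086 and 0.11. For the 51 runs with 4 or more probes the means were -0.034 and 0.0035, where remaining runs of that length had 0.069 and 0.070. In each of these classes the mean of the stretch lay below that of the remaining runs on both arrays. The classes were coarse and not alike inside. Dimmer runs of the stretch had a mean log2 intensity of 6.98, and 46.7% had 2 or 3 probes. For dimmer remaining runs these values were 7.37 and 35.5%. Whether brightness and probe number account for the low mean was not tested. Remaining autosomal runs weighted to the same probe numbers and brightness would have given 0.028 on A and -0.031 on B, with 5.85 gains and 3.83 losses in place of the 2 and 6 called.

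**Figure D4:**
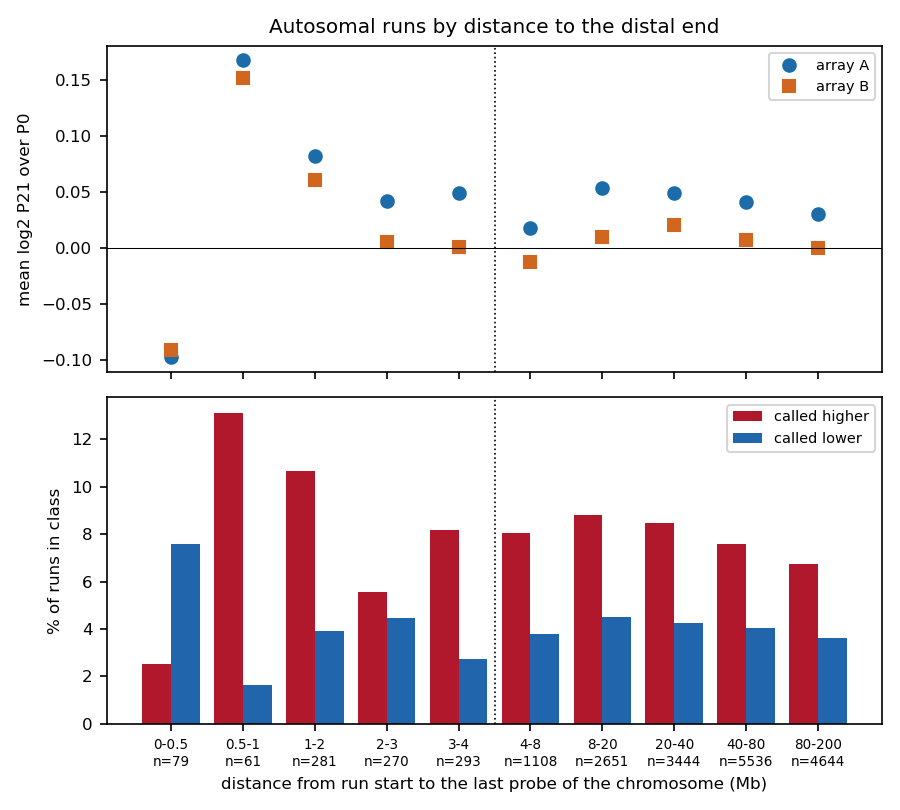
Top, mean log2 ratio of P21 over P0 on arrays A (blue circles) and B (orange squares) for autosomal runs by distance of their start from the last probe of the chromosome (Mb); bottom, share of each class called higher (red) or lower (blue) by limma, with the number of runs under each class and the 4 Mb limit dotted. The class within 0.5 Mb is below 0 on both arrays, at -0.097 and -0.091, and the next one is the highest, at 0.17 and 0.15.

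The run nearest the end of each chromosome started 188 to 2638 bp from the last probe end. The mean log2 ratio of these 19 runs had a median of -0.19 and ranged from -0.59 to 0.87. On 9 chromosomes it lay below 0 on both arrays, on 3 above 0 on both, and on 7 the arrays had opposite signs. For chromosomes 1, 10, 13, 14, 17 and 18 this was the only run of the last 0.5 Mb, so it also made up the mean given above. Medians of the remaining autosomal runs lay below 0 too, at -0.015 on A and -0.031 on B. Of the 19, the run of chromosome 2 at chr2:181882493-181883033 rose (0.81 on A and 0.93 on B, limma adjusted p = 0.00772), and the run of chromosome 11 already described was the only one called lower. At the other limit, the nearest run on either side of the 4 Mb line was taken on each chromosome. The 19 inside started 2720974 to 3997232 bp from the last probe end, and the 19 outside 4001171 to 7566700 bp. Some thus lay far from the line. Both sets had a median of -0.067. Called higher were 4 of the 19 inside and 1 of the 19 outside, where 7.65% of all runs tested were. These counts are small and their difference was not tested.

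Calls followed the number of probes and the brightness of a run, at the distal ends as elsewhere. Among distal runs with 2 probes 1.47% of 136 were called higher and 6.62% lower, and among those with more than 8 probes 14.5% of 62 were called higher and 0 lower. The remaining autosomal runs went the same way, from 4.42% higher and 8.79% lower with 2 probes to 11.3% and 0.466% with more than 8. With all runs split into 4 classes of brightness, the share of distal runs called higher was 2.78% in the dimmest, 9.13% and 11.2% in the next ones and 8.20% in the brightest. The share called lower went from 9.72% in the dimmest to 1.17% in the brightest. Distal runs were a little brighter than the rest, at a mean log2 intensity of 9.97 against 9.76. Had each class of probe number and brightness been called at the rate of the remaining autosomal runs, 77.1 gains and 39.0 losses would have been called among the distal runs, close to the 79 and 38 found.

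**Figure D5:**
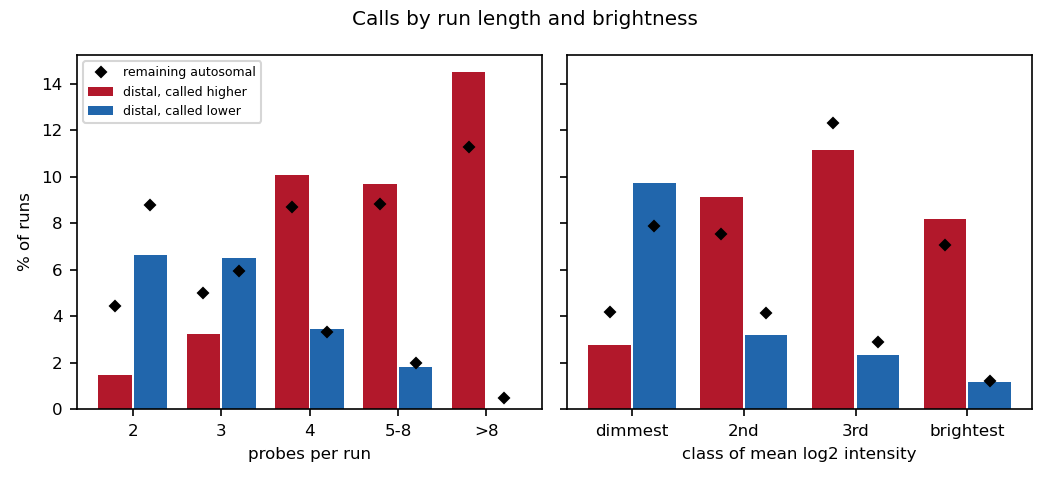
Share of distal runs called higher (red bars) or lower (blue bars) at P21 by limma, by number of probes per run (left) and by 4 classes of mean log2 intensity (right), with the remaining autosomal runs as black diamonds. Gains go from 1.47% with 2 probes to 14.5% with more than 8, and losses are most frequent among the dimmest runs, at 9.72%.

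Neighbouring called runs mostly pointed the same way. Of 14 pairs of adjacent called distal runs at most 20 kb apart, 11 had the same direction (78.6%), 6 of them both higher and 5 both lower. In the remaining autosomal runs 166 of 217 such pairs did (76.5%). On chromosome 11, runs from 119731740, 119732566 and 119745336 fell together, with mean log2 ratios of -0.69, -0.57 and -0.55. Also on chromosome 11, runs from 120000679 and 120002215 rose together, at 1.17 and 1.90, across a gap of 703 bp.

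A change of sign over a short distance was found on chromosomes 15 and 4. On chromosome 15 a run from 99412394 rose (0.61 on A and 1.68 on B), one from 99419306 fell (-0.51 and -0.87), and the bright run from 99429258 rose. The first and the last of these lay 16485 bp apart. On chromosome 4 a run from 153484983 rose by 1.83 and one from 153489157 fell by 0.73 on the log2 scale. The strongest gain of all, on chromosome 15 from 102846563, had a neighbour of 16 probes from 102841884 that rose as well (0.43 and 0.86, limma adjusted p = 0.0426). The strong gain on chromosome 10 from 127123975 stood alone, with 4 neighbours within 20 kb whose mean log2 ratios lay between -0.15 and 0.045.

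Some distal runs differed strongly between the arrays and were not called. In 6 of the 984 the log2 ratios of the arrays were at least 1.5 apart. The widest was chr7:142861470-142861811, with -0.018 on A and -2.01 on B from 2 probes (limma adjusted p = 0.188). It lay 594 bp from the called chromosome 7 loss of 6 probes. Others were chr11:117717227-117717352 (-0.21 and -1.83) and chr4:153884895-153885261 (1.17 and -0.63), also with 2 probes each.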

How the data were processed

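Both arrays came from one slide and scan, and were Agilent two-colour tiling arrays. Per the file headers, Feature Extraction 10.5.1.1 made the deposited log10 ratios, red divided by green processed signal, after background subtraction, spatial detrending and linear dye normalisation. Version 9.1.3.1 of that program stands in the submitters' processing notes. The deposited processed and median intensity values are on a linear scale, and the deposited flags are 0 or 1. The authors' deposited series values were the same log10 ratios with the sign of array A turned (largest difference 0.00496).

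Ratios were brought to the log2 scale, given the sign of P21 over P0 and centred on each array's median (0 on both), so the log2 values rest on the deposited ratios. Of 90535 non-control spots, 800 with an outlier flag on either array (30 on A, 775 on B) were left out and 0 were saturated. Well above background were 93.8% to 95.3% of spots per channel. The number of arrays, 2, limits the precision. Probe values were averaged per run and tested against 0 with limma 3.58.1 (lmFit and eBayes, two-sided) in R 4.3.3 (package data.table, version 1.17.8) over all 18761 runs, with Benjamini-Hochberg adjusted p under 0.05 as the threshold. Intensities given per run are geometric means over its probes. Each run has 1 residual degree of freedom plus the shared prior. In simulated data the share of false calls was above the nominal level. That was a single draw with far fewer changed runs than were called here, each of a set size. Its share of false calls therefore cannot be read as the share among the calls reported. Differences between sets of runs were given per array, with no test over runs, since neighbours are not independent.

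The runs described singly are the 12 highest and 12 lowest by mean log2 ratio among limma calls with the same sign on both arrays. Pairs of neighbours, runs at the limits, runs far apart between arrays, the other called runs given by position and the last 0.5 Mb were picked out after their values were seen. Members, lists and tests were chosen with earlier results of these data known. No gene table or genome of build mm8 was used here. The alternatives tried were other centring, background correction, loess, prior, probe filters, gap, window, run summary and minimum probe number, the authors' series values and each array alone.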

Additional observations from a re-analysis of the deposited data

Results flagged for a closer look

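Runs within 0.5 Mb of the last probe had a mean log2 ratio of -0.094 over both arrays, below 0 on each, while the remaining autosomal runs lay above 0 on each. The difference between these sets was not tested. Runs of the last 0.5 Mb were also dimmer, at a mean log2 intensity of 9.07 against 9.76. Their mean number of probes was close, at 4.61 against 4.65.

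On chromosome 11 the distal runs had a mean log2 ratio of -0.020, below 0 on both arrays, and the rest of the chromosome lay above 0 on both (0.043 on array A and 0.023 on array B). Chromosome 13 showed the same pattern, with -0.074 over 8 distal runs and with 0.022 and 0.0062 in the rest of the chromosome. Its distal runs were dim, at a mean log2 intensity of 6.59 against 9.52 in its rest. Those of chromosome 11 were bright, at 10.8 against 9.79. Neither difference was tested.

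Lone distal probes, which no run takes in and no comparison used, carried signal. Of 124 measured, 104 (83.9%) stood well above background at both ages on each array, where 61 of 1196 negative control spots (5.10%) were. Their mean log2 ratio was -0.060 on A and -0.26 on B, and by the rule of size 3 were higher and 2 lower.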

How the results depend on the processing

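Each array holds the P21 and P0 pair of its replicate, so every ratio is already a comparison within a pair. Both arrays form 1 group, tested against 0. As reported, limma called 79 distal runs higher and 38 lower, the rule of size took in 44 and 3, and the mean difference from the remaining autosomal runs was 0.013. Centring, the authors' series values, kept outlier spots and gaps of at most 1000 bp kept all of these within 1.5 times. With normexp and loess, limma called 55 higher and 24 lower, the rule of size took in 28 and 0, and the difference was 0.0040 (0.0095 on A, -0.0016 on B). With normexp alone, 19 higher and 0 lower runs were called, 0 were lower by size, and the difference was 0.018 (-0.0047 on A, 0.040 on B). Losses called were 60 with loess on processed signals (difference 0.011), 60 with only probes well above background at both ages on each array (difference 0.011), 72 with a trended and robust prior and 14 with the median per run (difference 0.015). Of the reported calls, 78 higher and 36 lower were kept under the trended prior, and 54 and 11 with normexp and loess. A window of 2 Mb gave 40 and 18 calls, 23 higher by size and a difference of 0.029. A window of 8 Mb gave 168 and 80 calls, 79 and 7 by size and a difference of -0.0062. Gaps of at most 250 bp gave a difference of 0.019, and runs of 4 or more probes gave 0.032 and 1 run lower by size. With either array left out, runs lower by size numbered 5 to 16, and limma, which needs both arrays, was not run. Chosen after seeing the data, equal weight per chromosome gave a difference of 0.026, equal probe number and brightness 0.011 and leaving out the last 0.5 Mb 0.024. Over 20 settings the difference ranged from -0.0062 to 0.032 and was above 0 in 19, on both arrays in 17. Centring and the prior are among these settings and cannot change the difference, so these counts overstate its stability. The cause of these changes was not tested. Of the values for runs described singly, 31 missed the threshold under an alternative and 0 reversed in their mean. Single arrays did change sign with normexp alone, as for the gain on chromosome 4 from 153754898 (-0.75 on B). The loss on chromosome 15 from 100004466 did so too (0.060 on A). The share called higher minus that elsewhere was 0.262 percentage points and lay between -0.62 and 1.76 over the settings. Signal over background limits the dim runs, most of all among losses.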
